A study of Mus musculus with 6 samples.

Results

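The genes of 10 secreted growth factors and cytokines were followed in activated CD4 T cells with and without vasoactive intestinal peptide (VIP): Pdgfb, Pdgfa, Gdf9, Areg, Hbegf, Tgfa, Vegfa, Igf1, Lif and Osm. They were chosen by name, and 9 of the 10, of 27975 gene symbols on the array, had a probe. All probes bearing one of these names were taken, 19 of 41174, and no probe was named Lif. The set was drawn up with earlier results of these arrays known. In those, Pdgfb and Gdf9 were selected on their low log2 ratio of VIP over untreated. The ratios of Pdgfb and Gdf9 are therefore given as a description, with no p-value.

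CD4 T cells were taken from spleens of C57BL/6J mice, males and females aged 6 to 32 weeks, with 5 to 10 spleens pooled per sample, and purified on magnetic beads. All cells were activated with PMA, which turns on protein kinase C, and ionomycin, which lets calcium in. One RNA of each array was from cells given VIP, a neuropeptide whose receptors raise cyclic AMP, and the other was from activated cells left without VIP. The 6 two-colour arrays are 6 biological replicates, with VIP in Cy5 on replicates 1, 3 and 5 and in Cy3 on replicates 2, 4 and 6. How much VIP was added, and for how long, is not stated in the labels used here. The number of arrays limits the precision, and in a mixed cell preparation fewer cells of a type and less RNA per cell cannot be told apart.

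Growth factors of these families act on neighbouring cells through receptor tyrosine kinases, or, for Gdf9, through receptor serine/threonine kinases. The platelet-derived growth factor (PDGF) chains form dimers that bind PDGF receptors on mesenchymal cells. Amphiregulin (Areg), heparin-binding EGF-like growth factor (Hbegf) and TGF-alpha (Tgfa) are made as membrane precursors, cut by metalloproteases, and bind the EGF receptor. In T cells Areg is known as a tissue repair factor of type 2 and regulatory subsets. Lif and Osm are cytokines of the interleukin-6 family that signal through gp130, the product of Il6st.

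Between 56.9% and 99.9% of spots were well above background, a flag set by the scanner software, depending on array and channel. Replicate 6 had the highest shares, 99.0% in VIP RNA and 99.9% in untreated RNA, so nearly every probe counted as detected on that array. The sample titles call the cells spleenocytes. All 9 CD4 T cell markers on the array were tested, and 8 of them were well above background on every array in both channels. So were 5 of 8 B cell markers and 6 of 11 monocyte and macrophage markers. Of the CD4 T cell markers 1, Cd28, was higher with VIP (log2 ratio 0.28, limma adjusted p = 0.0125), where 1.6% of all genes were called higher. Replicate 5 stood apart. Its log2 ratios of the sex-linked transcripts were 4.08 for Ddx3y, 4.18 for Eif2s3y and -3.29 for Xist, against -0.34 to 0.46 for these 3 transcripts on the other arrays. It also had the most spots with an outlier flag, 13.5%. Whether both RNAs of that array came from the same pool of mice is therefore in doubt, and the main results are also given without it.

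A stretch of each of 6 probes is shown because the ratio of Pdgfb differed between its probes and because Areg has a single probe; for Vegfa, the brightest probe and the one printed in 10 spots are shown, and for Gdf9 its only probe. Capitals mark ATTTA, the core of AU-rich elements, read on the printed strand. Coordinates were taken from the array files and refer to mm9.
Pdgfb A_52_P618427, bases 21 to 50: aatgtaaagtttATTTAtattccgtATTTA
Pdgfb A_51_P175262, bases 1 to 30: acatgaactcctctgggcaggtggccacaa
Gdf9 A_51_P220806, bases 1 to 30: acagatttgttagcataagtctcgagtaga
Areg A_52_P482897, bases 1 to 30: ctcagaggagtatgataatgaaccacaaat
Vegfa A_51_P482552, bases 1 to 30: actggattcgccattttcttatatctgctg
Vegfa A_52_P638895, bases 26 to 55: tcctgagaagatATTTAattttgctaacac

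The first Pdgfb probe lies at chr15:79826327-79826386 and the other at chr15:79827138-79827197, both on the minus strand. The first has a GC content of 18.3%, which 0.457% of all probes equal or undercut, and the other has 53.3%. ATTTA occurs 2 times in the first Pdgfb probe and 1 time in one Vegfa probe, and 9.16% of all probes hold it. The Gdf9 probe lies at chr11:53251307-53251366 and the Areg probe at chr5:91570090-91570149, both on the plus strand. The Vegfa probes lie at chr17:46155512-46155571 and chr17:46154387-46154446 on the minus strand. The exon or untranslated region under each probe was not analysed here.

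The comparison of VIP with untreated cells asked which of these transcripts differed between activated cells with and without the peptide. Pdgfb and Gdf9 were lower with VIP on every array, with folds of 0.689 and 0.743, and Areg was 1.22-fold higher. The transcripts of Hbegf, Tgfa, Vegfa, Igf1 and Osm had log2 ratios between -0.04 and 0.06 at their brightest probe. All 9 genes with a probe passed the filter on dim probes, as did 17 of the 19 probes. By limma with Benjamini-Hochberg adjustment over 22731 genes, 1.6% of all genes were called higher and 0.524% lower. Of the 9 growth factor genes, 1 (Areg) was called higher and 2 (Pdgfb and Gdf9) lower. Nothing is read from the count of 2, since these genes were chosen for that ratio. The median log2 ratio was -0.01 over the 9 genes and 0.00 over all genes tested.

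**Figure D1:**
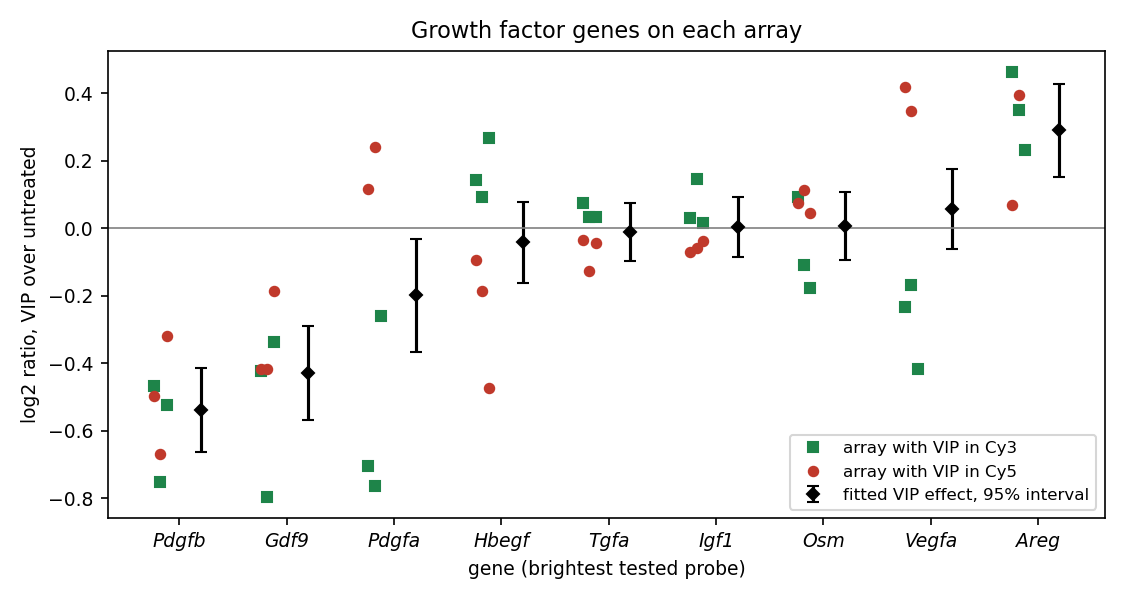
Log2 ratio of VIP over untreated for the 9 growth factor genes at their brightest tested probe, 1 point per array (circles, VIP in Cy5; squares, VIP in Cy3), with the fitted VIP effect and its 95% interval as a diamond. Pdgfb and Gdf9 lie below 0 on all 6 arrays and Areg above 0 on its 5 arrays, whereas Pdgfa, Vegfa, Hbegf, Tgfa and Igf1 split by dye.

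Pdgfb encodes the B chain of PDGF. At the brighter probe, the log2 intensities on replicates 1 to 6 were 7.82, 8.16, 8.10, 8.31, 9.18 and 8.40 in VIP RNA, against 8.32, 8.63, 8.77, 9.06, 9.5 and 8.92 in untreated RNA. The groups overlap across arrays, because arrays differ in brightness, but the VIP value was below its untreated partner on 6 of 6 arrays. Of all genes with values on 6 arrays, 2.69% were lower on each. The log2 ratios were -0.50, -0.47, -0.67, -0.75, -0.32 and -0.52. The fitted log2 ratio was -0.54 ± 0.056 (SE, n = 6), with a 95% interval of -0.66 to -0.41. By that ratio Pdgfb ranked 3 from the lowest of 22731 genes. Pdgfb was selected on its low ratio in these arrays, so nothing is read from its rank or from its 6 of 6 arrays. The smallest fall was on replicate 5, and without that array the log2 ratio was -0.58.

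The second Pdgfb probe moved the same way and less. Its log2 intensities in VIP RNA were 7.17, 7.25, 7.26, 7.28, 7.43 and 8.27, against 7.25, 7.62, 7.27, 7.62, 7.56 and 8.34 in untreated RNA. The log2 ratios were -0.08, -0.37, -0.02, -0.34, -0.13 and -0.08, so that VIP was below untreated on 6 of 6 arrays, as at 2.72% of probes measured on all 6. Its fitted log2 ratio was -0.17 ± 0.048. On every array the ratio was nearer to 0 than at the first probe, which is both richer in AT and brighter. The mean log2 intensities were 8.60 at the first probe and 7.53 at the second. With a normexp offset of 0 in place of 50, their log2 ratios were -0.64 and -0.25. The cause of the difference between the probes was not tested. With the mean of both probes in place of the brighter one, the log2 ratio of Pdgfb was -0.35. In the ratio computed by the scanner software the dimmer probe fell by 0.32 and the brighter one fell by 0.66 on the log2 scale.

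Gdf9 encodes growth differentiation factor 9, a TGF-beta family ligand known from the oocyte. Its probe was well above background on all 6 arrays in both channels. Log2 intensities were 7.99, 8.47, 8.41, 7.76, 8.03 and 9.18 in VIP RNA, against 8.41, 8.89, 8.83, 8.55, 8.21 and 9.51 in untreated RNA. VIP was below untreated on 6 of 6 arrays, with the widest gap on replicate 4. The log2 ratios were -0.42, -0.42, -0.42, -0.80, -0.18 and -0.34, and the fitted value was -0.43 ± 0.063 (SE, n = 6). Its 95% interval ran from -0.57 to -0.29, and without replicate 5 the log2 ratio was -0.47.

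**Figure D2:**
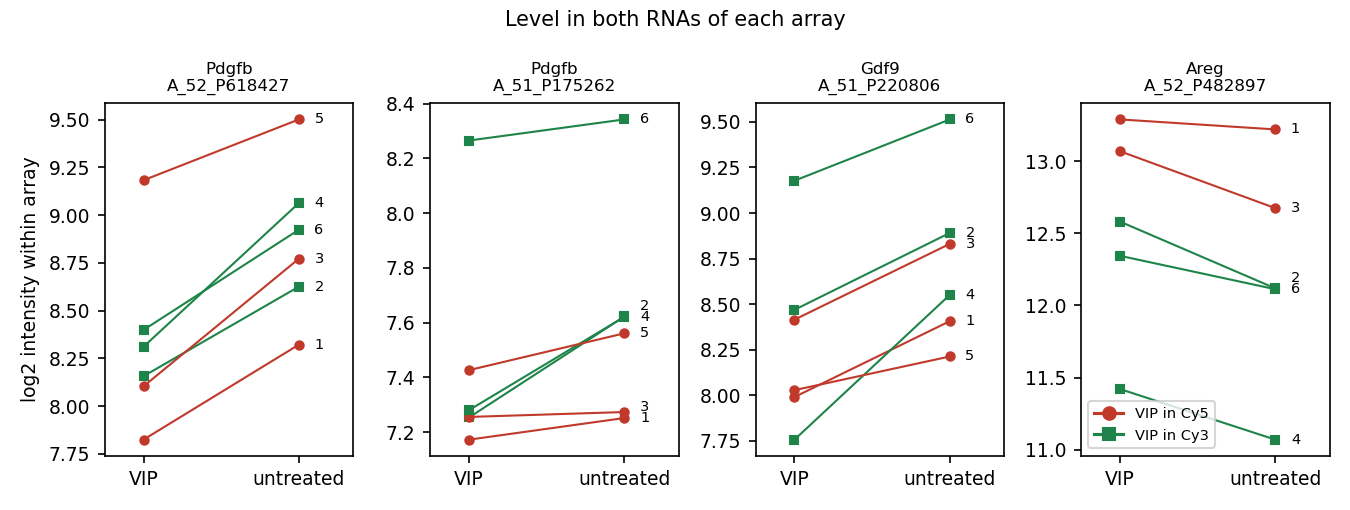
Log2 intensity of both Pdgfb probes, the Gdf9 probe and the Areg probe in VIP and untreated RNA, with a line joining both RNAs of one array and the replicate number at its right end (circles, VIP in Cy5; squares, VIP in Cy3). The lines of Pdgfb and Gdf9 go up towards untreated on all 6 arrays, and the 5 lines of Areg go down.

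By within-slide means of 1 array of each dye orientation, the log2 ratio of Pdgfb was -0.48, -0.71 and -0.42 on slides 1, 2 and 3. For Gdf9 these means were -0.42, -0.61 and -0.26. Both genes were thus lowest on slide 2 and nearest to 0 on slide 3, which holds replicates 5 and 6. The 5 genes whose 6 ratios, after removal of the dye effect, lay nearest to those of Pdgfb were Ddr1, Gdf9, Ltb, Reep3 and Lta. Their root-mean-square distances were 0.125, 0.138, 0.139, 0.143 and 0.160 over 6 arrays, against a median of 0.562 over the 18586 genes compared. This is a description of the same arrays, with no test. The distance takes in the size of the ratio, so genes with a fall like that of Pdgfb lie near it whatever their pattern over arrays. Nothing is read from the gap to the median. Ddr1 is a collagen-binding receptor kinase, Reep3 a protein of the endoplasmic reticulum, and Lta and Ltb encode lymphotoxin subunits.

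Pdgfa encodes the A chain of PDGF and did not pass the test. At its brighter probe the log2 intensities on replicates 1, 2, 3, 4 and 6 were 10.25, 9.39, 10.47, 8.72 and 10.10 in VIP RNA, against 10.13, 10.09, 10.23, 9.49 and 10.36 in untreated RNA. The spot of replicate 5 carried an outlier flag and was dropped. The ratios followed the dye: 0.12 and 0.24 with VIP in Cy5, and -0.70, -0.76 and -0.26 with VIP in Cy3. The fitted dye effect was 0.38 and the VIP effect -0.20 ± 0.074 (SE, n = 5, limma adjusted p = 0.288). On slides 1 and 2 the within-slide means were -0.29 and -0.26. A fit with the slide as a block used the complete slides and gave -0.28 with a limma adjusted p of 0.0494.

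The dimmer Pdgfa probe had log2 ratios of -0.26, -0.09, -0.26, 0.07, -0.22 and -0.04, lower with VIP on 5 of 6 arrays. Its fitted value was -0.13 ± 0.040 (limma adjusted p over all probes = 0.163). The Pdgfa and Pdgfb probes, 4 in all, had fitted log2 ratios below 0, of which 1 passed the test over 33056 probes, where 0.538% of probes were called lower. That 1 is the brighter Pdgfb probe, chosen for its ratio. Nothing is read from the 4 signs, since Pdgfb was chosen for its fall and probes of one gene are not independent. The median log2 ratio of all genes tested was 0.00. The scanner software's ratio of the dimmer Pdgfa probe was -0.53, but that probe was well above background on only 4 arrays for VIP RNA and 5 for untreated RNA.

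Areg was the growth factor gene that rose. Its log2 intensities on replicates 1, 2, 3, 4 and 6 were 13.29, 12.58, 13.07, 11.42 and 12.34 in VIP RNA, against 13.22, 12.12, 12.67, 11.07 and 12.11 in untreated RNA. VIP was above untreated on 5 of 5 arrays, by the least on replicate 1. The log2 ratios were 0.07, 0.46, 0.39, 0.35 and 0.23. The spot of replicate 5 carried an outlier flag and was dropped, and with such spots kept the fitted log2 ratio was 0.26. The fitted log2 ratio was 0.29 ± 0.061 (SE, n = 5), with a 95% interval of 0.15 to 0.43 (limma adjusted p = 0.0476). By slide, the means on slides 1 and 2 were 0.27 and 0.37. The call was lost in 11 of 17 alternatives, with log2 ratios of 0.21 to 0.37 over all 17.

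The 250 bases before the annotated start of Areg are shown because they hold the palindromic cyclic AMP response element TGACGTCA, the site of CREB family factors, and a TATA box. The sequence is RefSeq's on GRCm38.p6, chr5:91139349-91139598, plus strand, with TGACGTCA and TATAAA in capitals.
Areg upstream: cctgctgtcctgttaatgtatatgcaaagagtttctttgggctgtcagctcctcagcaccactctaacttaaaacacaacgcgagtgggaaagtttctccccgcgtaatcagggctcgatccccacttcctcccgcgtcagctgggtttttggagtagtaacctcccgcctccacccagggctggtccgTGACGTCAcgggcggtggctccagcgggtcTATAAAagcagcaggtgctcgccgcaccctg

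TGACGTCA starts at -61 and TATAAA at -31 from the start. Both strands were searched, and the motifs do not overlap. Of 32851 such windows, 1.55% hold TGACGTCA and 12.4% hold TATAAA. Windows of 6 of the genes were examined, 8 windows in all, and the other 7 windows hold neither. These were windows of Pdgfa, Tgfa, Igf1, Lif and Vegfa. No window of Pdgfb, Gdf9, Hbegf or Osm was examined, so nothing is known here of the motifs at those genes. A match is a description of letters, and no binding was measured here.

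The other EGF receptor ligands did not pass. Hbegf had log2 intensities of 9.62, 9.46, 9.49, 8.49, 9.11 and 10.22 in VIP RNA, against 9.71, 9.32, 9.67, 8.40, 9.58 and 9.95 in untreated RNA. Its log2 ratios were -0.09, 0.14, -0.19, 0.09, -0.47 and 0.27, below 0 on the 3 arrays with VIP in Cy5 and above 0 on the 3 with VIP in Cy3. The fitted dye effect was -0.21 and the VIP effect -0.04 ± 0.054, with a 95% interval of -0.16 to 0.08 (limma adjusted p = 0.833). Tgfa is printed in 10 spots and, with a second probe, was near background. Its probes were well above background on 3 arrays in each channel, with fitted log2 ratios of -0.01 ± 0.039 and 0.03 ± 0.045. At that dim level the normexp offset of 50 pulls ratios towards 0, so these values set no limit on a change of the transcript.

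Vegfa, the vascular endothelial growth factor that binds Flt1 and Kdr, had 4 probes. The 10-spot probe had log2 intensities of 12.39, 12.53, 12.56, 11.76, 12.97 and 11.92 in VIP RNA, against 12.31, 12.38, 12.49, 11.57, 12.92 and 11.82 in untreated RNA. VIP was above untreated on 6 of 6 arrays, by log2 ratios of 0.08, 0.15, 0.06, 0.19, 0.05 and 0.09. The fitted value was 0.11 ± 0.038 (limma adjusted p over all probes = 0.261), and 3.47% of probes measured on all 6 arrays were higher on each. Single spots of that probe on one array differed by an SD of 0.03 to 0.11. Between arrays the SD was 0.03 after removal of the dye effect. It was taken over means of 7 to 10 spots, so these SDs cannot be compared directly.

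The brightest Vegfa probe, the one holding ATTTA, gave ratios of 0.42, -0.23, 0.35, -0.17 and -0.42 on replicates 1, 2, 3, 4 and 6. They followed the dye, with a dye effect of 0.33 and a VIP effect of 0.06 ± 0.052 (SE, n = 5, limma adjusted p = 0.747). The remaining Vegfa probes had fitted log2 ratios of 0.02 and 0.00. The 4 probes thus ran from 0.00 to 0.11, and none passed the test.

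**Figure D3:**
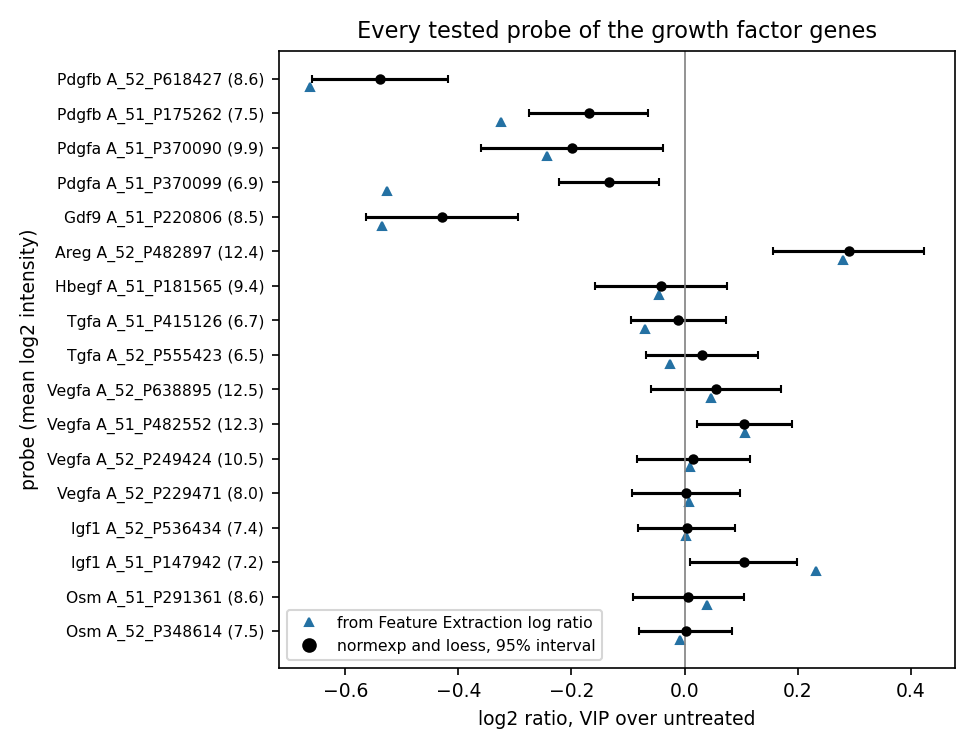
Fitted log2 ratio of VIP over untreated with its 95% interval for the 17 tested probes (circles), and the value from the scanner software's log ratio (triangles), with each probe's mean log2 intensity in parentheses. The 4 PDGF probes lie below 0 with the brighter Pdgfb probe lowest, and the triangles lie farther from 0 than the circles at several dim probes.

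Igf1, the insulin-like growth factor that binds Igf1r, had 4 probes, of which 2 were well above background on 1 array, replicate 6, in each channel and were not tested. The brightest gave 0.00 ± 0.040, and the 10-spot probe had log2 ratios of 0.22, 0.10, 0.09, 0.09, -0.02 and 0.15. The 10-spot probe was higher with VIP on 5 of 6 arrays, with a fitted value of 0.10 ± 0.043 (limma adjusted p over all probes = 0.343). Osm had fitted log2 ratios of 0.01 ± 0.046 and 0.00 ± 0.037 at its probes, both well above background on all arrays. The 95% interval at the brighter Osm probe was -0.09 to 0.11 (limma adjusted p = 0.976). A probe named AK019683, which the array design describes as a Lif cDNA, is no member and had a log2 ratio of 0.00 ± 0.046.

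Receptors for these ligands were examined as a list of 17, of which 13 were tested. One, Il6st, was lower, none was higher, and 12 did not pass, against 0.524% of all genes called lower. At an unadjusted p under 0.05, 2 receptors were higher and 2 lower, Il6st included. Il6st, the gp130 chain shared by the receptors of Lif and Osm, had log2 ratios of -0.27, -0.29, -0.03, -0.34, -0.15 and -0.25. It was lower with VIP on 6 of 6 arrays, by the least on replicate 3, with a fitted value of -0.22 ± 0.044 (limma adjusted p = 0.0306) and -0.22 without replicate 5. The call was lost in 9 of 18 alternatives, and with median centring in place of loess the log2 ratio was -0.13. The list's median log2 ratio was -0.04.

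Both PDGF receptors, Pdgfra and Pdgfrb, were well above background on 2 arrays in each channel and were not tested, and neither were Erbb4 and Osmr. The log2 ratio of Nrp1, a co-receptor for VEGF, was 0.17 ± 0.050 (limma adjusted p = 0.134). It was above 0 on 6 of 6 arrays, as were 3.35% of genes measured on all. Igf1r (-0.07) and Lifr (-0.01) were bright and did not pass either. Egfr, the receptor of Areg, Hbegf and Tgfa, had 0.09 ± 0.038 at its brightest probe (limma adjusted p = 0.354), and its 4 probes ran from -0.10 to 0.09.

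Of 15 tested related ligands of the same families, out of 18 on the array, none passed in limma and 0 had an unadjusted p under 0.05, with a median log2 ratio of -0.02. The smallest p-values were those of the EGF family member Epgn (0.15, n = 3), Pdgfc (0.08) and Pdgfd (0.10, n = 3), with limma adjusted p of 0.437, 0.601 and 0.628. Of 14 tested proteases that cut or mature such precursors, out of 15 on the array, none passed in limma. At an unadjusted p under 0.05, 3 were lower and 1 was higher. The sheddase Adam8 had -0.14 ± 0.039 (limma adjusted p = 0.13) and was below 0 on 6 of 6 arrays. Furin, the convertase that matures the PDGF chains, had -0.25 ± 0.083 (limma adjusted p = 0.203), but its other probe had 0.03. Rhbdf2, which carries the sheddase Adam17 to the cell surface, had -0.14 ± 0.055 (limma adjusted p = 0.305), and Adam17 itself had log2 ratios of -0.00 and -0.04 at its probes. Of 9 tested binding proteins, out of 10, none passed in limma and 0 had an unadjusted p under 0.05. Igfbp4, Sparc and Thbs1 had the smallest p-values, with log2 ratios of 0.12, 0.07 and 0.05, and the median was 0.02.

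**Figure D4:**
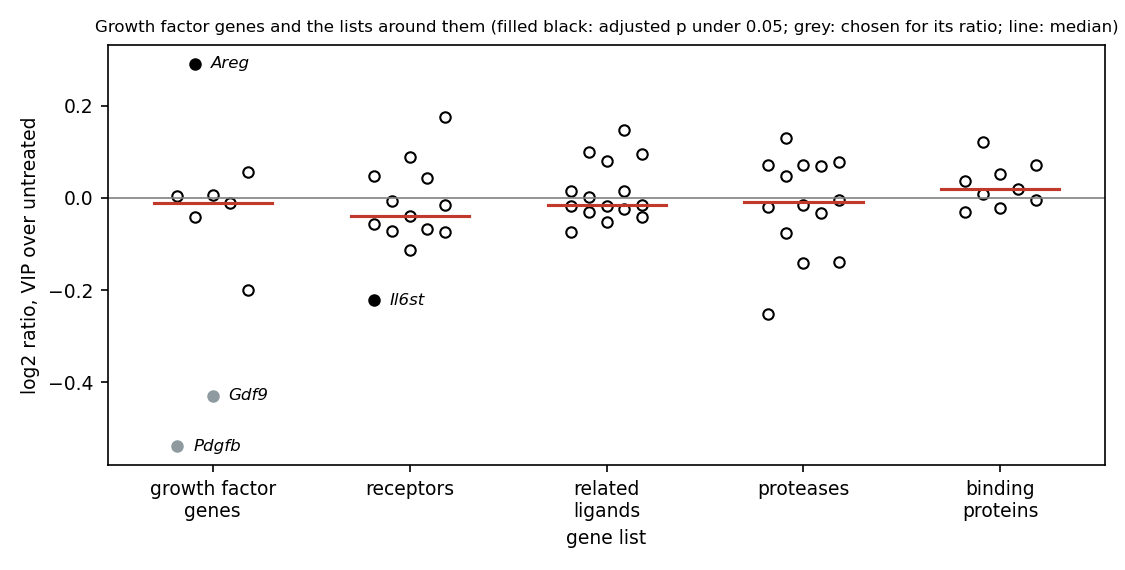
Log2 ratio of VIP over untreated for each tested gene of the growth factor set and of 4 lists around it, 1 point per gene, with the list's median as a red line. Filled black points passed a limma adjusted p of 0.05, open points did not, and grey points are Pdgfb and Gdf9. Areg and Il6st are the genes in black, and the 5 medians lie between -0.04 and 0.02.

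Cells other than CD4 T cells can hold growth factor transcripts, with platelets rich in PDGF. Of 8 platelet and megakaryocyte markers, 7 were tested, none passed in limma, 0 had an unadjusted p under 0.05, and the median log2 ratio was -0.03. None of the 8 was well above background on all 6 arrays in both channels. Itgb3 (mean log2 intensity 12.09) and Treml1 (7.71) were so on all 5 arrays with a value. Having no value on replicate 5, both are left out of the sum below. The smallest p-values were those of Itga2b (log2 ratio -0.09, below 0 on 6 of 6 arrays, limma adjusted p = 0.406) and Gp5 (-0.07, limma adjusted p = 0.493). The abundant platelet transcripts Pf4 and Ppbp had log2 ratios of -0.05 and -0.02. The summed intensity of the 5 platelet markers measured on all arrays ran from 535 to 1018 in VIP RNA and from 561 to 1019 in untreated RNA.

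Monocyte and macrophage markers moved in 1 case: of 11 tested, Cd14 was higher (log2 ratio 0.57, n = 5, limma adjusted p = 0.0033). The other 10 did not pass, and 1.6% of all genes were called higher. The sums over 8 of them ran from 10774 to 20387 in VIP RNA and from 8636 to 20207 in untreated RNA. Of the B cell markers 8 were tested, and the sum over 7 of them ran from 17409 to 84875 in VIP RNA and from 15004 to 82540 in untreated RNA. No marker of B cells, dendritic cells, neutrophils, NK and CD8 T cells, erythroid cells or stromal and endothelial cells passed in limma. At an unadjusted p under 0.05, 1 B cell and 1 dendritic cell marker were higher. The part of such cells in the ratios of Pdgfb, Gdf9 and Areg was not tested.

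Over 12 processing settings and 6 fits that each left out 1 array, the log2 ratio of Gdf9 lay between -0.54 and -0.36 and that of Il6st between -0.25 and -0.13. Areg stayed above 0 in the 17 of these in which it was tested.

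**Figure D5:**
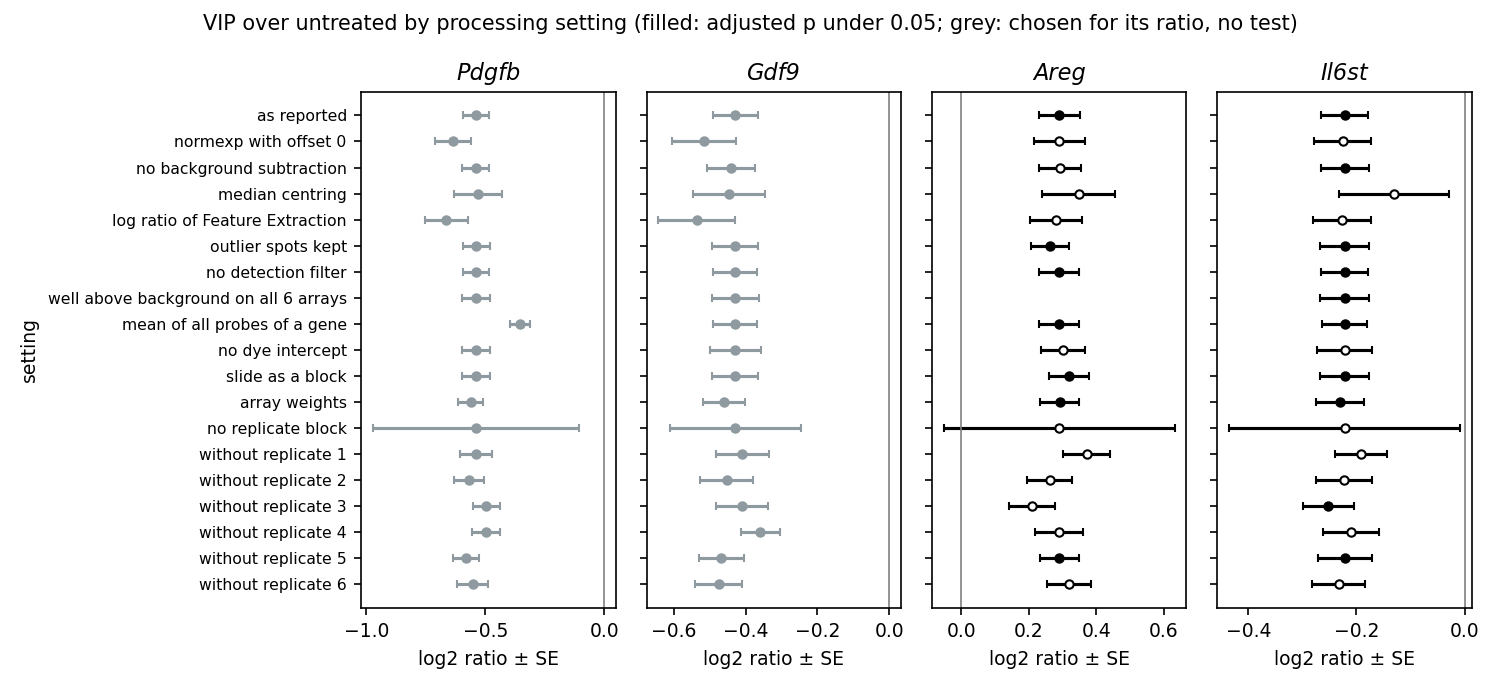
Log2 ratio ± SE of VIP over untreated for Pdgfb, Gdf9, Areg and Il6st as reported and under each alternative setting, 1 row per setting. Black points are filled where the limma adjusted p was under 0.05, and Pdgfb and Gdf9 are in grey with no test shown. Every point of Pdgfb lies between -0.66 and -0.35, and the widest bars are those of the fit without the replicate block.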

How the data were processed

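Agilent two-colour arrays measured total RNA. Per the file headers, Agilent Feature Extraction 9.5.1.1 made the deposited spot intensity, local background and 0 or 1 quality flags per channel. It also gave a deposited log10 ratio of Cy5 over Cy3. The authors' series table holds the same log10 ratio as VIP over untreated, differing by at most 4.47e-06 after turning the sign for VIP in Cy3. Its column medians were 0 except -0.00022 on replicate 3.

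Mean signal was corrected with normexp (offset 50) and normalized by loess within arrays, giving the 1639 control spots weight 0, with limma 3.58.1 (R 4.3.3). Control spots and spots with an outlier flag were then left out, and spots of a probe averaged. For the summed marker intensities and the fit without the replicate block, the arrays' mean intensities were first quantile normalized between arrays. The log2 intensities printed for single probes were not normalized between arrays. Spots were named through their RefSeq accession (26788 of 43379), a synonym (1810) or the file's own name, from a GRCm38 table used for names only. A gene took its brightest probe among those well above background on at least 3 arrays in either channel. The model for the log2 ratio had an intercept for dye and a VIP term signed by orientation, so the array is taken as the pair of each replicate. For replicate 5, whose RNAs differed in sex-linked transcripts, that pairing is in doubt. A second fit took every probe as its own row. The p-values rest on the spread among the arrays with a value, 5 or 6 for the growth factor genes. In limma each gene's variance is also drawn towards a value estimated from all genes, with 6.2 prior degrees of freedom.

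Each of the 3 slides held 1 array of each orientation, VIP in Cy5 at position 2 and VIP in Cy3 at position 4, so position and orientation cannot be told apart. Members, gene lists and tests were chosen with earlier results of these data known. Named were all members, the called genes of each of the 4 lists around them or else its 3 smallest p-values, and the 5 genes nearest to Pdgfb. Egfr, Igf1r, Lifr, Adam17 and the receptors below background were named after their values were seen, as were Nrp1 and the single marker genes. The fit was tested on simulated data. Alternatives varied the background correction, normalization, flags, filter, probe rule, dye term, slide, weights, pairing and replicates.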

Additional observations from a re-analysis of the deposited data

How the results depend on the processing

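Over all genes, 363 were called higher and 119 lower. The counts higher and lower were 74 and 9 with a normexp offset of 0, 112 and 8 with median centring, 19 and 0 with the Feature Extraction ratio, 162 and 39 without the dye intercept, 481 and 226 with array weights, and 1 and 0 without the replicate block (both channels as separate samples). At an unadjusted p under 0.05, limma had 1003 lower with the Feature Extraction ratio and 12 without the block. Leaving out 1 array gave 162 to 569 higher and 31 to 252 lower, the most without replicate 5. The share higher was 75.3% of calls, and 89.2%, 93.3% and 100% with offset 0, median centring and the Feature Extraction ratio. Without replicate 4 it was 86.2%.

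Of the growth factor genes, 0 were called higher with an offset of 0, no background subtraction, median centring, the Feature Extraction ratio, detection on all 6 arrays (where Areg was not tested), no dye intercept or no replicate block, and 0 to 1 when 1 array was left out. The genes called lower were 1 with offset 0, 0 with the Feature Extraction ratio, 0 without the replicate block and 3 with the slide as a block, against 2 otherwise. Nothing is read from these counts, since Pdgfb and Gdf9 were selected on their low ratio in these arrays. Leaving out any array other than replicate 5 ended the call of Areg, at log2 ratios of 0.37, 0.26, 0.21, 0.29 and 0.32 without replicates 1, 2, 3, 4 and 6. Il6st lost its call without replicates 1, 2, 4 and 6. Pdgfb lay between -0.66 and -0.35 and Gdf9 between -0.54 and -0.36 over 18 alternatives.

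Ratios that did not pass and lay near 0 changed sign. Tgfa was 0.0028 with offset 0 and 0.010 with the mean of probes, Vegfa -0.0096 without the dye intercept, and Igf1 -0.00080 without background subtraction. Leaving out 1 array gave -0.081 to 0.014 for Hbegf, -0.019 to 0.0036 for Tgfa, -0.017 to 0.016 for Igf1 and -0.032 to 0.035 for Osm. The cause of these shifts was not tested. Dim probes limit Tgfa and Igf1.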
